A study of Mus musculus with 9 samples.

Results

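Macrophage genes were examined in epididymal fat, the fat pad beside the epididymis, as 37 gene symbols chosen to mark macrophages and their states. 35 of the 37 had at least 1 of 59 probes named for them on the array, which held 45281 probes and 19057 named genes. The other 2 symbols, Cd68 and Lyve1b, had no probe named for them, so no value is given under these symbols. Whether a probe without a gene symbol reads their RNA was not tested. The gene named Lyve1 did have a tested probe and is given below among other resident genes. 31 genes were read by at least 1 probe detected on 4 or more arrays and were tested, with 41 probes, among 23354 probes and 12171 named genes tested in all.

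RNA was measured on Illumina mouse bead arrays, 1 array for each of 9 FVB/N mice aged 3 months and fasted for 14 to 16 h. 5 mice, tg/tg by label, were transgenic for the cytoskeletal tropomyosin Tm5NM1, and 4, wt/wt by label, were wild type. Strain, age and fasting were shared by both groups, and the labels used here do not name the promoter that drives the transgene. Mice are called by their label numbers, which are 165, 152, 147, 163 and 164 for transgenic and 141, 142, 143 and 159 for wild-type animals.

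Fat holds resident macrophages that lie along its vessels, clear dying cells and debris, and carry scavenger and mannose receptors and the C1q complement proteins. When fat cells grow or die, further macrophages take up lipid around them and switch on a lysosomal and lipid-handling programme under the receptor TREM2. Both kinds depend on the growth factor receptor encoded by Csf1r and on the transcription factor PU.1, encoded by Spi1.

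Between 22239 and 23313 probes per array were detected (p under 0.05). The median intensity was 142 to 147 in wild-type mice 142, 143 and 159 and 169 to 192 on the other 6 arrays. Quantile normalization evened out the distributions, which need not even out single probes near background. Adipoq, the gene of the fat-cell hormone adiponectin, read between 15.80 and 16.01 on the log2 scale in every mouse. These are among the highest signals on the arrays, so their evenness does not show equal fat-cell content. The mean of 10 tested fat-cell genes ran from 11.58 to 12.51. Genes of the epididymis were also measured, at a mean log2 signal of 5.18 to 10.74 in transgenic and 11.29 to 14.45 in wild-type mice, and this level is set beside the macrophage genes below where they moved with it. Array number limits the precision of every comparison. In whole fat, fewer cells of a type and less RNA per cell cannot be told apart.

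The label was checked against the genes that define these cells. 29 of the 31 tested genes were detected on all 9 arrays, among them Adgre1, the gene of a macrophage surface receptor, Csf1r, Mrc1 (the mannose receptor) and the 3 C1q chain genes. Itgam and Itgax, the genes of the integrin chains CD11b and CD11c, were detected on no array, nor was Fcer1g, the signalling chain shared by Fc receptors. Lipa, lysosomal acid lipase, was detected in at most 3 transgenic and in 0 wild-type mice at either of its probes and was not tested. The absence of signal at these probes says only that they were not above background.

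PU.1 binds DNA at a core that ends in GGAA, and promoters of macrophage genes often carry it. The core GAGGAA, or TTCCTC where it lies on the other strand, was searched from 250 bases before to 50 after each start in RefSeq promoters of build GRCm38.p6, which held 27 of the 37 symbols. 17 of these 27 genes (63%) had at least 1 match, and 8446 of all 27025 genes (31.3%) had one. The share is a description of letters in a window and shows no binding. Promoters are shown for Mrc1, C1qb and C1qc, which mark resident macrophages, for Trem2 of the lipid-associated set, and for P2rx7 and Emb, which gave the lowest p-values in either direction. Capitals mark each match, and the text runs from the farthest base before the start to the last base after it.

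Mrc1 (chr2:14229164-14229463, plus strand): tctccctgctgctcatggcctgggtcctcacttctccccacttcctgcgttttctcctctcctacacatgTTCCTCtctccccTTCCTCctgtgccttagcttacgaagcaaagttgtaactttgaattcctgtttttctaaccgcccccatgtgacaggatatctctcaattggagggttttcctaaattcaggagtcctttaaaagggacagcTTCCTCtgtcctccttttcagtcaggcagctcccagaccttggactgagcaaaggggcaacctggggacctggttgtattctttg
C1qb (chr4:136886151-136886450, minus strand): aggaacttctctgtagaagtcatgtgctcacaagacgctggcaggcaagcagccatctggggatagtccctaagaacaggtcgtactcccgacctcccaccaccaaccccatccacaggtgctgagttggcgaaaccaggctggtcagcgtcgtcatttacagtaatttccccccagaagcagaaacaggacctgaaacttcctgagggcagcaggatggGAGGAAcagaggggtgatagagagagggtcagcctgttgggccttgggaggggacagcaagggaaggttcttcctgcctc
C1qc (chr4:136892865-136893164, minus strand): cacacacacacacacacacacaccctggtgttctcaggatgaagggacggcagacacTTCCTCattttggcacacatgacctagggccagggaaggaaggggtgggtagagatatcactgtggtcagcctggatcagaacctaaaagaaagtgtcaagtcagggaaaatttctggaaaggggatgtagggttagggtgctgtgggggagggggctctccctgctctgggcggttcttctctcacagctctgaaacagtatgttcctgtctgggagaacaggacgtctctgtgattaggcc
Trem2 (chr17:48346151-48346450, plus strand): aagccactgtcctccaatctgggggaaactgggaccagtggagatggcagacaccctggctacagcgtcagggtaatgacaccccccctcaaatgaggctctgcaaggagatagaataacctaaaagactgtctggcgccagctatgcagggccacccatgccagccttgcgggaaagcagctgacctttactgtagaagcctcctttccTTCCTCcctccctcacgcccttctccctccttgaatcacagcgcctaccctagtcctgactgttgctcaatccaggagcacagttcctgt
P2rx7, first start (chr5:122643677-122643976, plus strand): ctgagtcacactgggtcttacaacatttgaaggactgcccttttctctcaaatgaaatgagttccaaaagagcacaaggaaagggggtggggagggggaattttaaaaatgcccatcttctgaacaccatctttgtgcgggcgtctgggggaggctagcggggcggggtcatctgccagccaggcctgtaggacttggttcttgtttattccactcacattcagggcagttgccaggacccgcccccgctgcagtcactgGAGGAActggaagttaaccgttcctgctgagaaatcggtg
P2rx7, second start (chr5:122650133-122650432, plus strand): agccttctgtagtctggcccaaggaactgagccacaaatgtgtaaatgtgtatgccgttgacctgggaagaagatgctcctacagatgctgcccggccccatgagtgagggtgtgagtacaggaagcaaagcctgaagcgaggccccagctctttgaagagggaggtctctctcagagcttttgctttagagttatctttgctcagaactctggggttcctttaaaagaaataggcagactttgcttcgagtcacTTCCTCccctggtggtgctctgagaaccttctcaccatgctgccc
Emb (chr13:117220323-117220622, plus strand): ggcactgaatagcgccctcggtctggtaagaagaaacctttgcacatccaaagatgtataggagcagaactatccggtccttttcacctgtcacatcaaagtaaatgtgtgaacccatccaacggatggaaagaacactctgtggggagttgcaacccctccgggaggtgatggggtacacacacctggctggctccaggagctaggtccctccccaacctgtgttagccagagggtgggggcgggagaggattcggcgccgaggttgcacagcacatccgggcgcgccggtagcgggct

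Mrc1 had 3 matches, whose first bases lay at -180, -167 and -35 from the start, all as TTCCTC. The match began at -30 in C1qb, -193 in C1qc and -40 in Trem2. Each start of P2rx7 was followed by 1 match, beginning at 11 and 6. Emb had none, nor had Lyz1 and Lyz2, the lysozyme genes. The promoters shown for the resident and lipid-associated sets all carry a match, which does not hold for each set as a whole. Of the other resident genes with a promoter here, Retnla had 1 match and Cd163 had none. Of the other lipid-associated genes, Lipa had 2 matches, and Cd9, Gpnmb, Lgals3 and Itgax had none.

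Transgenic and wild-type fat were compared to ask whether the macrophage genes differ with the transgene. None of the 31 tested macrophage genes passed the test over all probes (limma, Benjamini-Hochberg adjustment, threshold 0.05). Of all genes tested, 0.107% passed, so a count of 0 among 31 is near the background. The lowest adjusted p among them was 0.0941, for Emb. At an unadjusted p under 0.05, 3 genes read higher in transgenic fat (P2rx7, Treml2 and Spi1) and 2 lower (Emb and Cd9), against 5.55% and 3.49% of all genes. 22 read higher and 9 lower, at a median difference of 0.10 (log2), and 56.5% of all genes were higher with a median of 0.04. P2rx7 and Treml2 were already known to be high in these transgenic mice when the genes were chosen. With the epididymal level, which largely follows genotype, as a covariate, the median was -0.70, against -0.02 over all genes in that fit. There 9 genes had an unadjusted p under 0.05 as lower, against 6.95% of all genes. Among transgenic mice only mouse 152, at 10.74, came near the wild-type epididymal level. It was the lowest of all mice for 16 of the 31 macrophage genes. How far this fit rests on mouse 152 was not tested.

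25 of the 31 genes differed by less than 1.5-fold. For 17 the 95% confidence interval lay within 1 unit on the log2 scale to either side of 0, so that a doubling or halving lay outside it. The groups did not overlap at 2 genes higher in transgenic fat, P2rx7 and Treml2, and at 2 genes lower, Emb and Msr1. Over all genes this held for 1.96% (higher) and 1.37% (lower). Since P2rx7 and Treml2 were known to be high in these mice when the genes were chosen, the count of genes higher cannot be compared with that share.

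**Figure D1:**
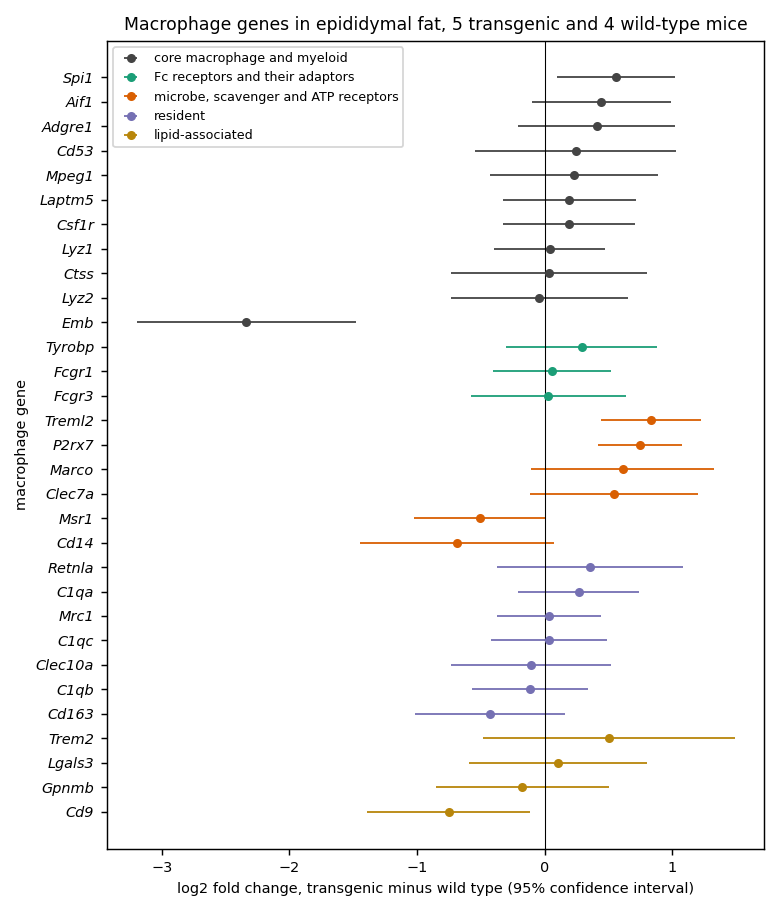
Log2 fold change (transgenic minus wild type) of the 31 tested macrophage genes with 95% confidence intervals, coloured by role. P2rx7, Treml2 and Spi1 lie above 0 and Emb and Cd9 below it with their whole interval, and the other intervals include 0.

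Core macrophage genes came first, and 9 of 11 tested read higher in transgenic fat, with a median of 0.19. On the log2 signal scale, which all per-mouse values below use, Adgre1 read 10.61 (mouse 165), 9.45 (152), 10.05 (147), 10.36 (163) and 10.97 (164) in transgenic fat, and 10.19 (141), 9.80 (142), 9.74 (143) and 9.79 (159) in wild-type fat. Mouse 164 was highest and mouse 152 lowest of all 9, so that the transgenic mice spanned the whole wild-type range. The log2 fold change was 0.41, with a 95% confidence interval of -0.21 to 1.02 (limma adjusted p = 0.674). It was 0.24 without mouse 164 and 0.62 without mouse 152. Its other two probes differed by 0.33 and 0.16.

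Csf1r, the receptor through which macrophages are kept alive, read 11.41 (mouse 165), 10.42 (152), 11.19 (147), 11.36 (163) and 11.47 (164) in transgenic fat, and 10.98 (141), 11.22 (142), 11.13 (143) and 10.59 (159) in wild-type fat. Only mouse 152 lay below the wild-type mice, and the fold change of 0.19 had an interval of -0.33 to 0.71 (adjusted p = 0.837). Spi1, which encodes PU.1, read 6.91 (mouse 165), 6.05 (152), 7.14 (147), 6.57 (163) and 6.73 (164) in transgenic fat, and 6.15 (141), 6.27 (142), 5.98 (143) and 6.08 (159) in wild-type fat. 4 of the 5 transgenic mice lay above every wild-type mouse, and mouse 152 fell within their range. Spi1 differed by 0.56, with an interval of 0.10 to 1.02 (limma adjusted p = 0.457), and by 0.25 without background correction.

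Aif1, an actin-binding protein of macrophages, read 9.02 (mouse 165), 8.45 (152), 8.74 (147), 8.98 (163) and 9.52 (164) in transgenic fat, and 8.70 (141), 8.32 (142), 8.93 (143) and 8.04 (159) in wild-type fat. The groups overlapped, with mouse 164 highest and mouse 159 lowest, and the difference was 0.45 (adjusted p = 0.603), or 0.29 without mouse 159. Lyz1 and Lyz2 encode lysozyme and are close copies, and whether a probe reads both was not tested. Lyz1 read 15.38 (mouse 165), 14.60 (152), 15.22 (147), 15.19 (163) and 15.46 (164) in transgenic fat, and 15.06 (141), 15.46 (142), 14.91 (143) and 15.09 (159) in wild-type fat. Lyz2 read 13.95 (mouse 165), 12.58 (152), 13.02 (147), 13.20 (163) and 13.77 (164) in transgenic fat, and 13.41 (141), 14.00 (142), 13.03 (143) and 12.94 (159) in wild-type fat. Neither separated the groups, at 0.04 and -0.04 (adjusted p = 0.966 and 0.98). The 2 dimmer Lyz1 probes differed by -0.13 and -0.44, and the dimmer Lyz2 probe by 0.27.

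The remaining core genes were Laptm5, a lysosomal membrane protein of blood cells, Mpeg1, a pore-forming protein of phagocytes, Cd53, a leukocyte tetraspanin, and Ctss, the protease cathepsin S. They differed by 0.19, 0.23, 0.24 and 0.04, with adjusted p between 0.834 and 0.984.

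Emb stood apart from the other core genes. It encodes embigin, a partner of transporters in the cell membrane that is also made outside the macrophage lineage. It read 9.77 (mouse 165), 9.77 (152), 9.51 (147), 9.79 (163) and 10.12 (164) in transgenic fat, and 12.24 (141), 10.71 (142), 12.89 (143) and 12.67 (159) in wild-type fat. A second Emb probe was detected on no array and was not tested. At the tested probe all 5 transgenic mice lay below all 4 wild-type mice, and among the latter mouse 142 was lowest. Means were 9.79 ± 0.22 (SD, n = 5) in transgenic and 12.13 ± 0.98 (SD, n = 4) in wild-type fat, a log2 fold change of -2.34 with an interval of -3.20 to -1.48 (limma adjusted p = 0.0941).

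Wild-type mouse 142 had both the least Emb and the least signal of epididymal genes in its group. The mean of 12 tested epididymal genes, of 14 chosen, was 13.49 in mouse 141, 14.45 in 143, 12.77 in 159 and 11.29 in 142. In transgenic mice it was 10.74 in mouse 152 and 5.18 to 7.79 in the other 4, while Emb stayed between 9.51 and 10.12. All 12 epididymal genes were lower in transgenic fat (median -6.16), and 5 passed the test. With the epididymal level as a covariate Emb differed by -1.76 (limma adjusted p = 0.389). Without wild-type mouse 142 it differed by -2.81 and passed (adjusted p = 0.000901), and with array weights it passed too (-2.21, adjusted p = 0.0192). More probes of all genes passed in these 2 fits, 36 without mouse 142 and 353 with array weights, against 16 in the analysis as reported.

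**Figure D2:**
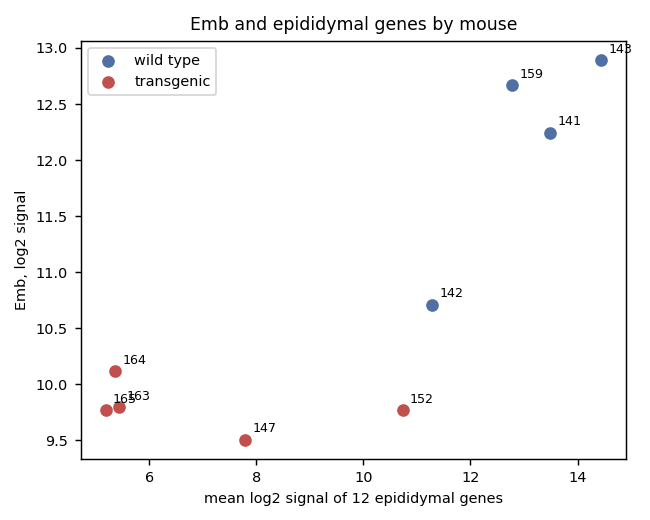
Log2 signal of Emb against the mean log2 signal of 12 epididymal genes, 1 point for each of the 9 mice. The wild-type mice lie at upper right, with mouse 142 lowest among them at 10.71, and transgenic mouse 152 has a high epididymal level of 10.74 with Emb at 9.77.

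Fc receptors bind antibody-coated particles, and Tyrobp encodes an adaptor through which receptors of the TREM family signal. Tyrobp read 9.73 (mouse 165), 8.63 (152), 8.89 (147), 9.27 (163) and 9.97 (164) in transgenic fat, and 9.22 (141), 8.85 (142), 8.87 (143) and 9.10 (159) in wild-type fat. Mice 164 and 165 were highest and mouse 152 lowest. Fcgr1 read 6.25 (mouse 165), 6.49 (152), 6.74 (147), 6.45 (163) and 7.32 (164) in transgenic fat, and 6.40 (141), 6.66 (142), 6.68 (143) and 6.62 (159) in wild-type fat. Fcgr3 read 11.59 (mouse 165), 10.13 (152), 10.84 (147), 11.04 (163) and 11.48 (164) in transgenic fat, and 10.92 (141), 11.23 (142), 10.90 (143) and 10.89 (159) in wild-type fat. For both genes the wild-type mice lay inside the transgenic range. Fcgr1 and Fcgr3 differed by 0.06 and 0.03, and Tyrobp by 0.29 (adjusted p = 0.951, 0.983 and 0.767).

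Among receptors for microbes, modified lipoproteins and ATP, 4 of 6 read higher and 2 lower. P2rx7 encodes an ion channel opened by extracellular ATP, known for inflammasome activation in macrophages and also present on lymphocytes. Its brightest probe read 7.04 (mouse 165), 7.43 (152), 7.0 (147), 7.22 (163) and 7.19 (164) in transgenic fat, and 6.45 (141), 6.15 (142), 6.43 (143) and 6.68 (159) in wild-type fat. Every transgenic mouse was above every wild-type mouse, mouse 152 included. Means were 7.18 ± 0.17 (SD, n = 5) in transgenic and 6.43 ± 0.22 (SD, n = 4) in wild-type fat, a difference of 0.75 with an interval of 0.42 to 1.08, which is 1.68-fold (limma adjusted p = 0.168). Without background correction it was 0.36, and without normalization between arrays 1.16.

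A second tested P2rx7 probe was detected in all 5 transgenic and 0 of 4 wild-type mice. It read 5.98 to 6.60 in transgenic and 5.44 to 5.62 in wild-type fat, a difference of 0.65 that makes it at least 1.42-fold higher (limma adjusted p = 0.296). Of the other P2rx7 probes, 1 was detected in 3 transgenic mice and 2 on no array.

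Treml2, a receptor of the TREM family found on myeloid and B cells, read 6.51 (mouse 165), 6.74 (152), 6.27 (147), 5.94 (163) and 6.33 (164) in transgenic fat, and 5.72 (141), 5.54 (142), 5.59 (143) and 5.26 (159) in wild-type fat. The groups did not overlap, and the probe was detected in all 5 transgenic mice but in 1 of 4 wild-type mice, so the wild-type level lay close to background. It differed by 0.83, with an interval of 0.44 to 1.23 (limma adjusted p = 0.205). The size depended on the background handling, at 0.31 without correction and 0.54 with an offset of 50.

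Msr1, a scavenger receptor for modified lipoproteins, read 6.41 (mouse 165), 6.13 (152), 6.36 (147), 6.57 (163) and 6.60 (164) in transgenic fat, and 6.66 (141), 6.62 (142), 6.71 (143) and 7.70 (159) in wild-type fat. The highest transgenic and the lowest wild-type value were 6.60 and 6.62, and mouse 159 alone lay far above the rest. It differed by -0.51 (limma adjusted p = 0.531), and by -0.25 without mouse 159 or without background correction. Cd14, a co-receptor for bacterial lipopolysaccharide, read 11.75 in mouse 159 and 9.44 to 10.33 in the other 8. It differed by -0.69 (adjusted p = 0.566), and by -0.29 without mouse 159.

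Marco, another scavenger receptor, and Clec7a, the receptor for fungal glucans, differed by 0.61 and 0.55 (adjusted p = 0.586 and 0.598). Marco was highest in mouse 165 at 7.37 and was detected in 3 of 4 wild-type mice, and without mouse 165 it differed by 0.35. Clec7a was highest in mouse 164 at 8.44, and without that mouse it differed by 0.29. Without background correction they differed by 0.25 and 0.32. The dimmer Clec7a probe differed by 0.55 (limma adjusted p = 0.473).

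**Figure D3:**
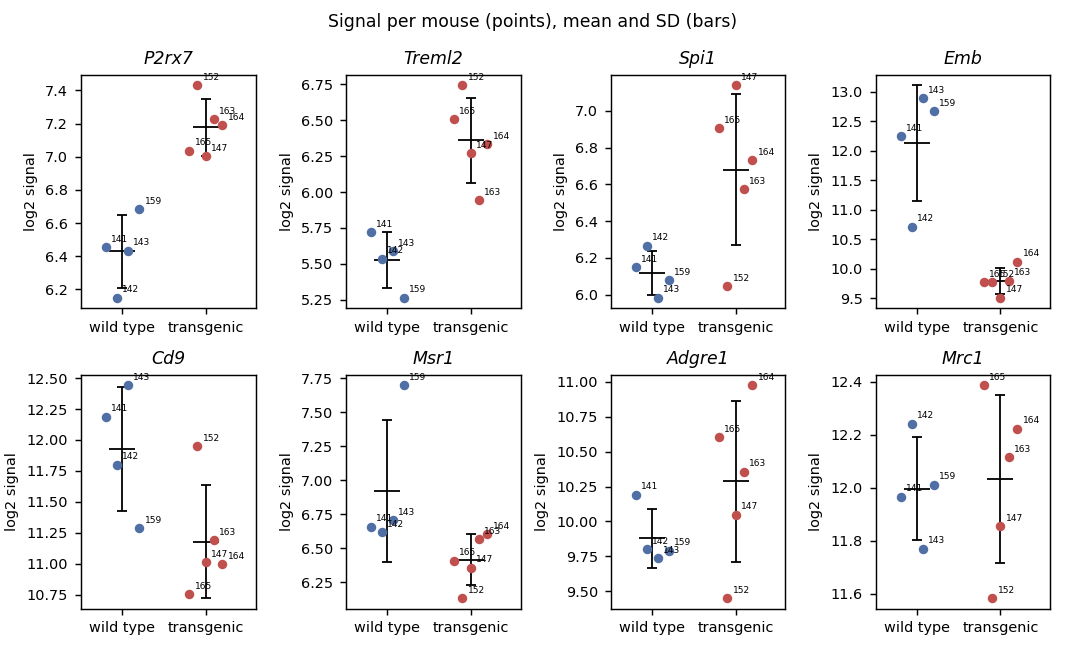
Log2 signal per mouse of 8 macrophage genes, with the mean and SD of each genotype as bars and mouse numbers beside the points. P2rx7 and Treml2 separate the genotypes upward and Emb downward, Msr1 does so by a gap from 6.60 to 6.62, and Adgre1 and Mrc1 overlap.

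Genes of resident macrophages were next, and 4 of 7 tested read higher and 3 lower, with a median of 0.03. None had an unadjusted p under 0.05. Mrc1, the mannose receptor gene, read 12.39 (mouse 165), 11.58 (152), 11.85 (147), 12.12 (163) and 12.22 (164) in transgenic fat, and 11.97 (141), 12.24 (142), 11.77 (143) and 12.01 (159) in wild-type fat. Transgenic mice 165 and 152 were the highest and the lowest of all 9. The difference was 0.04, with an interval of -0.37 to 0.44 (adjusted p = 0.967).

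C1qa, C1qb and C1qc encode the chains of complement C1q, which tags dying cells for uptake. C1qa read 9.92 (mouse 165), 8.92 (152), 9.28 (147), 9.32 (163) and 9.52 (164) in transgenic fat, and 8.96 (141), 9.37 (142), 9.34 (143) and 8.81 (159) in wild-type fat. C1qb read 11.82 (mouse 165), 10.84 (152), 11.37 (147), 11.50 (163) and 11.71 (164) in transgenic fat, and 11.30 (141), 11.60 (142), 11.63 (143) and 11.72 (159) in wild-type fat. C1qc read 12.26 (mouse 165), 11.30 (152), 11.74 (147), 12.01 (163) and 12.23 (164) in transgenic fat, and 11.70 (141), 12.05 (142), 11.80 (143) and 11.95 (159) in wild-type fat. Mouse 165 was highest for all 3, and mouse 152 was the lowest for C1qb and C1qc and the lowest transgenic mouse for C1qa. They differed by 0.27, -0.11 and 0.03 between genotypes, with intervals of -0.21 to 0.74, -0.57 to 0.34 and -0.42 to 0.49 (adjusted p = 0.723, 0.893 and 0.973).

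Cd163, the receptor that clears haemoglobin, read 10.72 (mouse 165), 10.11 (152), 11.05 (147), 11.08 (163) and 11.17 (164) in transgenic fat, and 10.92 (141), 11.08 (142), 11.12 (143) and 11.89 (159) in wild-type fat. Mouse 159 was highest and mouse 152 lowest, and the difference was -0.43 (adjusted p = 0.638), -0.22 without mouse 159 and -0.25 without mouse 152. Retnla, a secreted protein of macrophages exposed to interleukins of the allergic type, read 14.54 (mouse 165), 13.60 (152), 14.40 (147), 14.19 (163) and 14.54 (164) in transgenic fat, and 14.26 (141), 14.43 (142), 14.04 (143) and 12.86 (159) in wild-type fat. Wild-type mouse 159 was lowest, followed by transgenic mouse 152, and the difference was 0.36 (adjusted p = 0.767). Without mouse 159 it was 0.0099. Clec10a, a lectin that binds galactose-type sugars, differed by -0.11 (adjusted p = 0.931).

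Lipid-associated genes split evenly, 2 higher and 2 lower among 4 tested, with a median of -0.03. Trem2, the lipid receptor of these macrophages, read 9.28 (mouse 165), 8.33 (152), 8.56 (147), 8.68 (163) and 9.74 (164) in transgenic fat, and 8.62 (141), 8.82 (142), 9.20 (143) and 7.01 (159) in wild-type fat. Mouse 159 was far below the others and mouse 164 highest. It differed by 0.50, with the wide interval of -0.48 to 1.49 (adjusted p = 0.757), by 0.04 without mouse 159 and by 0.30 without mouse 164.

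Gpnmb, a membrane glycoprotein of lysosome-rich macrophages, read 8.98 (mouse 165), 9.79 (152), 9.14 (147), 9.70 (163) and 10.47 (164) in transgenic fat, and 9.54 (141), 9.40 (142), 9.98 (143) and 10.24 (159) in wild-type fat. The wild-type mice lay inside the transgenic range, and the difference was -0.17 (adjusted p = 0.892). Its other tested probe differed by -0.17, detected in 2 transgenic and 4 wild-type mice. Lgals3, the sugar-binding galectin-3, differed by 0.10 (adjusted p = 0.94).

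Cd9, a tetraspanin of lipid-associated macrophages that many epithelia also carry, read 10.75 (mouse 165), 11.95 (152), 11.01 (147), 11.19 (163) and 10.99 (164) in transgenic fat, and 12.19 (141), 11.80 (142), 12.44 (143) and 11.29 (159) in wild-type fat. Transgenic mouse 152 lay within the wild-type range, and wild-type mouse 159 was close to the other transgenic mice. It differed by -0.75, with an interval of -1.39 to -0.11 (limma adjusted p = 0.48). The mice with the highest Cd9, 143 and 141, also had the highest epididymal level, and among transgenic mice 152 was highest for both. With the epididymal level as a covariate Cd9 differed by 0.34 (adjusted p = 0.781).

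The macrophage genes varied among mice of 1 genotype. The median deviation of the 31 genes from their means over 9 mice was 0.44 in mouse 164, 0.27 in 165, 0.05 in 163, -0.13 in 147 and -0.54 in 152, all transgenic. In wild-type mice it ran from -0.14 to 0.03. Mouse 164 was the highest of all 9 for 15 genes and mouse 152 the lowest for 16. The SD was larger among transgenic than among wild-type mice for 22 of 31 genes (71%), against 46.6% of all genes, with a median SD of 0.43 and 0.28. The groups differ in size, and this difference in spread was not tested.

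Mouse 152 had a median deviation below 0 in all 5 roles. It was -0.66 for core genes, -0.54 for Fc receptors and their adaptors, -0.35 for microbe, scavenger and ATP receptors, -0.59 for resident genes and -0.13 for lipid-associated genes. P2rx7 and Treml2 were highest of all in this mouse. Without mouse 152, 8 macrophage genes had an unadjusted p under 0.05 as higher and 2 as lower, against 9.87% and 6.58% of all genes in that fit, and the median difference was 0.25. None passed the adjusted threshold. This mouse also had the lowest mean of endothelial genes, 11.33 against 11.51 to 12.43 in the others, and the highest epididymal level among transgenic mice, and the part of either in its macrophage values was not tested.

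**Figure D4:**
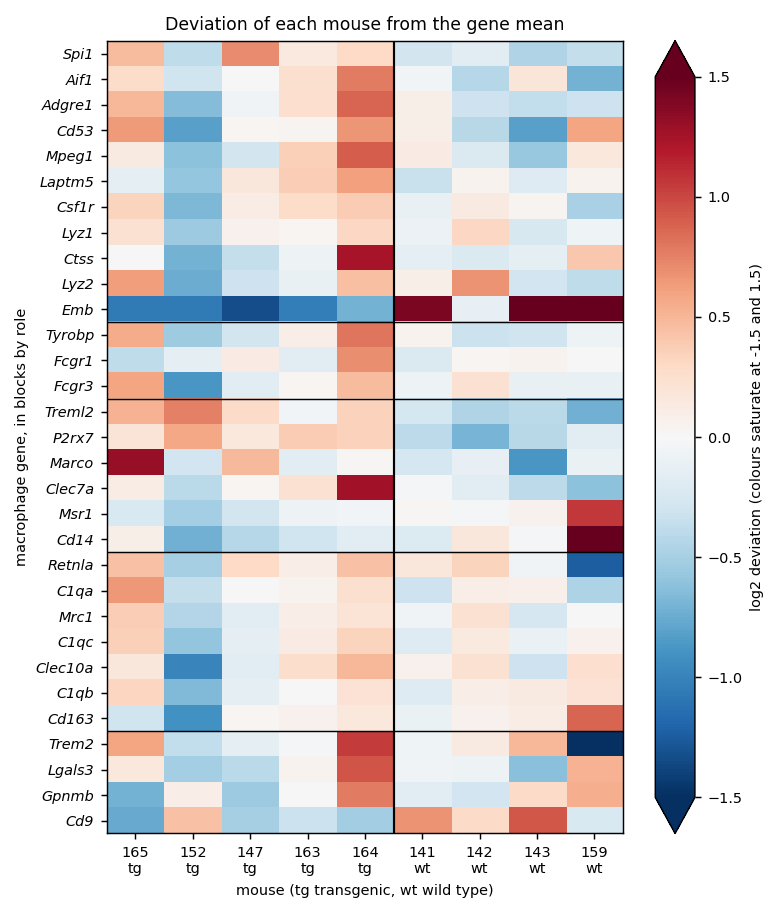
Deviation of each mouse (columns) from the mean of each macrophage gene (rows, in blocks by role) on the log2 scale, red above and blue below the mean. The column of mouse 152 is mostly blue and that of 164 mostly red, while mouse 159 is red for Cd14 and Msr1 and blue for Trem2 and Retnla.

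Other genes of macrophage biology were taken from 8 lists chosen with earlier results of these arrays known. None of their genes passed the adjusted threshold. For the counts of direction in these and the later lists, 56.5% of all genes read higher, at a median of 0.04. Among other resident genes, 11 read higher and 4 lower among 15 tested of 17 chosen, with a list median of 0.09. Fcrls, an Fc receptor-like gene, differed by 0.64 and Lyve1, the hyaluronan receptor of perivascular macrophages, by -0.52 (limma adjusted p = 0.451 and 0.528). The 2 resident markers thus read in opposite directions.

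In the list of other lipid-associated and lysosomal genes, 10 read higher and 2 lower among 12 tested of 15 chosen, with a list median of 0.14. Capg, an actin-capping protein, differed by -0.96 and Acp5, a lysosomal acid phosphatase, by 0.86 (limma adjusted p = 0.373 and 0.43). Capg was highest in wild-type mice 143, 159 and 141, the 3 with the highest epididymal level. Transgenic mouse 152, with the highest epididymal level of its group, had the lowest Capg of all mice at 9.95. For monocyte genes, 5 read higher and 2 lower among 7 tested of 11 chosen, with a list median of 0.23. Ly6c1 differed by 0.23 and Cx3cr1, the fractalkine receptor, by 0.35 (adjusted p = 0.659 and 0.661).

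Genes that control macrophage growth and lineage showed no common direction, since 5 read higher and 7 lower among 12 tested of 13 chosen, with a list median of -0.04. Cebpb, a transcription factor of both fat cells and myeloid cells, read 12.30 (mouse 165), 11.87 (152), 12.05 (147), 12.13 (163) and 12.24 (164) in transgenic fat, and 12.72 (141), 12.87 (142), 12.78 (143) and 13.10 (159) in wild-type fat. Every transgenic mouse was below every wild-type mouse, and the difference was -0.75 (limma adjusted p = 0.143). Runx1, a blood-lineage factor, differed by -0.92 (adjusted p = 0.451) and was highest in mice 143 and 141.

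For inflammatory genes, 6 read higher and 1 lower among 7 tested of 15 chosen, with a list median of 0.20. Nos2, the inducible nitric oxide synthase, differed by 0.49 and Il1b by -0.56 (adjusted p = 0.587 and 0.638). The cytokine Il6 was detected on no array and Tnf on 2. For alternative activation, 4 read higher and 0 lower among 4 tested of 10 chosen, with a list median of 0.14. Ccl8 and Tgm2 differed by 0.35 and 0.13 (adjusted p = 0.771 and 0.826), and Arg1, the classical enzyme of this state, was detected on 3 arrays and not tested.

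The adaptors above signal through kinases and are held back by phosphatases, and in that list 7 read higher and 4 lower among 11 tested of 15 chosen, with a list median of 0.15. Inpp5d, the lipid phosphatase SHIP of blood cells, read 7.13 (mouse 165), 6.75 (152), 6.60 (147), 7.14 (163) and 7.43 (164) in transgenic fat, and 9.08 (141), 7.69 (142), 9.47 (143) and 7.79 (159) in wild-type fat. All transgenic mice were below the wild-type mice, of which 143 and 141 were highest, as for the epididymal level. Transgenic mouse 152, with the highest epididymal level of its group, was not the highest of its group for Inpp5d. Inpp5d differed by -1.5 and Trem1, an activating relative of Trem2, by 0.66 (limma adjusted p = 0.296 and 0.296). Among ATP and adenosine receptors and enzymes, the setting of P2rx7, 3 read higher and 3 lower among 6 tested of 9 chosen, with a list median of -0.01. P2ry6 and the channel gene Panx1 differed by 0.29 and 0.27 (adjusted p = 0.652 and 0.718).

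**Figure D5:**
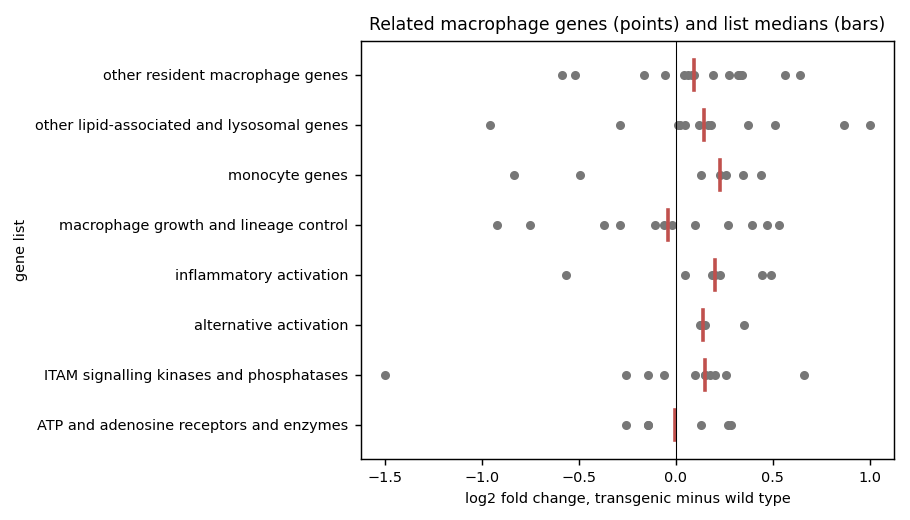
Log2 fold change (transgenic minus wild type) of each tested gene (points) in 8 lists of related macrophage genes, with the median of each list as a bar. Medians lie between -0.04 and 0.23, and the farthest point is Inpp5d at -1.5.

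Markers of other cells in the fat pad were read beside the macrophage genes. Among T and NK cell genes, 5 read higher and 2 lower among 7 tested of 15 chosen, with a list median of 0.63. The list mean was 7.36 to 9.26 in transgenic and 7.60 to 7.90 in wild-type mice, highest in mice 164 and 165, the mice that were also highest for most macrophage genes. Nkg7, a granule protein of cytotoxic cells, differed by 1.46 and Cd3g, a T cell receptor chain, by 0.71 (adjusted p = 0.399 and 0.618), while Cd4 and Cd8a were detected on no array. Among B and plasma cell genes, 4 read higher and 0 lower among 4 tested of 10 chosen, with a list median of 0.57. Mzb1 differed by 0.89 and Cd79b by 0.80, with a list mean of 5.79 to 7.86 in transgenic and 5.84 to 6.22 in wild-type mice. P2rx7 and Treml2 were highest in mouse 152, in which both lymphocyte list means were the lowest of the 9 mice. Whether lymphocytes had a part in the macrophage gene values was not tested.

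Of dendritic cell genes, 5 read higher and 1 lower among 6 tested of 8 chosen, with a list median of 0.20. Cd209a differed by -0.86 and Ccr7 by 0.54 (adjusted p = 0.482 and 0.521). Of the neutrophil list only S100a8 was tested, at 0.00, and of mast cell and eosinophil genes 1 read higher and 4 lower among 5 tested of 10 chosen, with a list median of -0.21, led by Kit (0.31) and Cpa3 (-0.45). None of these genes passed.

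For the tissue itself, adipocyte genes were higher at 6 and lower at 4 of 10 tested, of 11 chosen (median 0.08), with Fabp4 at 1.27 and Pnpla2 at -0.32. Endothelial genes were higher at all 10 tested, of 11 chosen (median 0.24), with Ramp2 at 0.42 and Tie1 at 0.61. Fibroblast and progenitor genes were higher at 7 and lower at 3 of 10 tested (median 0.15), with Pdgfra at -0.38 and Pdgfrb at 0.41. Mesothelial genes were lower at all 9 tested, of 10 chosen (median -0.83), with Upk1b at -2.46 and Krt7 at -0.65. Sperm genes were lower at 4 of 4 tested, of 6 chosen (median -0.15), with Odf1 at -1.55 and Prm1 at -0.23. Red blood cell genes were within 0.07 of 0 at all 3 tested, of 5 chosen, with Hbb-bt at -0.07 and Hba-a1 at 0.01. Hbb-bt read 15.70 to 15.87 and Hba-a1 15.79 to 16.01, among the highest signals, so their evenness does not show equal blood content. Alas2, the third, ran from 9.72 in mouse 152 to 11.86 in mouse 163, both transgenic. Among these 6 lists none passed, and among epididymal genes Defb48 (-8.98) and Adam28 (-8.26) had the lowest p.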

How the data were processed

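Illumina bead arrays of 9 mice, 1 array each, were analysed. Biotin-labelled cRNA was made with the Ambion MessageAmp kit from RNA with integrity scores above 7.8, per the labels' protocols. How arrays were scanned, and whether values were normalized first, is not stated in the labels. The deposited series matrix holds intensities on a linear scale, and a second deposited table, called non-normalized, holds intensities and a detection p-value per probe, per the file headers. Ordered by series matrix intensity, its detection p increased at 1 place or fewer per array. Ordered by the other table it increased at 12137 to 12861 places on 8 arrays, and for mouse 147 the tables were identical. The series matrix was therefore used, and the other table was an alternative.

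Intensities were corrected and normalized by neqc in limma 3.58.1 (R 4.3.3), with background from the detection p, an offset of 16, quantile normalization and log2. Probes detected (p under 0.05) on 4 or more arrays were fitted with lmFit and eBayes, two-sided, without covariates, and adjusted over 23354 probes by Benjamini-Hochberg. In 5 simulations with 200 changed probes each, 4.12% of calls were false, and 46% of changes of 1 and 88.8% of changes of 2 on the log2 scale were found. 34885 probes had 1 gene symbol in the platform annotation, 18 several and 10378 none. A gene stands for its brightest tested probe. Where a probe was below background in every mouse of a group, the fold is set against the dimmest detected signal per array. Such a fold takes no account of sampling error.

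The macrophage genes, the 5 role groups, the 20 other lists and the alternatives were chosen with earlier results of these data known. Values in every mouse are given for Adgre1, Csf1r, Mrc1, Trem2, Spi1, Lyz1, Lyz2, the C1q genes and the 3 tested genes with the lowest p in each role, and other lists give the 2 genes with the lowest p; Cebpb and Inpp5d are given in full after their values were seen. A comparison of protein sequences was not made. 2 alternatives were added after the data were seen. The mice are separate animals by number; the labels give no cage, litter or slide.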

Additional observations from a re-analysis of the deposited data

Results flagged for a closer look

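5 of 62 groups of macrophage gene values, each of 4 or 5 mice of 1 genotype, held a mouse far from the others by Dixon's ratio at its 95% critical value. Chance gives about 1 group in 20. In wild-type fat, Msr1 read 7.70 in mouse 159 against 6.62 to 6.71 in the other 3, and Ctss read 8.87 in the same mouse against 8.25 to 8.33. Adgre1 read 10.19 in wild-type mouse 141 against 9.74 to 9.80, and Fcgr3 read 11.23 in wild-type mouse 142 against 10.89 to 10.92. In transgenic fat, Csf1r read 10.42 in mouse 152 against 11.19 to 11.47 in the other 4.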

How the results depend on the processing

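22 alternatives were run, 2 of them added after the data were seen. In the analysis as reported 16 probes and 0 macrophage genes passed. Leaving out 1 mouse gave 9 to 50 probes (50 without transgenic mouse 152, 36 without wild-type mouse 142, 9 without transgenic mouse 147, 163 or 164), 0 to 1 macrophage genes passing (Emb, without wild-type mouse 142), 2 to 8 at an unadjusted p under 0.05 as higher (8 without mouse 152) and 1 to 3 as lower (1 without transgenic mouse 165, 147 or 164 or wild-type mouse 143), and medians of -0.01 to 0.25 for all macrophage genes, -0.05 to 0.15 for resident and -0.25 to 0.08 for lipid-associated genes. The share of all genes higher at an unadjusted p under 0.05 moved too, to 9.87% without mouse 152 from 5.55% in the analysis as reported. Shares for the other fits without 1 mouse are not given here. Without mice 152 and 159, the 2 with the lowest array weights, 47 probes passed and 6 macrophage genes were higher at the unadjusted threshold, against 9.56% of all genes. Array weights gave 353 of 23354 probes and 3 macrophage genes (Emb, P2rx7 and Cd9). Requiring a detection p under 0.01 on all 9 arrays left 1 probe passing and 1 macrophage gene higher at the unadjusted threshold, against 5.89% of all genes, and no filter on dim probes left 9 passing. Without normalization between arrays the median over all genes was itself 0.42 higher in transgenic mice. There 1332 probes and 4 macrophage genes (Emb, P2rx7, Spi1 and Treml2) passed, 12 were higher and 1 lower at the unadjusted threshold, against 40.1% of all genes higher, and the medians were 0.48 for all and 0.39 for resident macrophage genes. With the epididymal level as a covariate the median was -0.70 for all and -0.88 for resident macrophage genes, with 9 lower at the unadjusted threshold and 0 passing, against 6.95% of all genes lower and a median of -0.02 over all genes. This level largely follows genotype, and among transgenic mice only mouse 152 came near the wild-type level. With the 3 dimmer wild-type arrays as a covariate, where mouse 141 alone stands for wild type, 9 probes passed, with 1 macrophage gene higher and 1 lower at the unadjusted threshold, against 1.46% and 1.34% of all genes.

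Turned directions were found in genes that had not passed. Scaling on the 75th percentile gave Lyz1 -0.073 and Mrc1 -0.0082. Array weights gave C1qb 0.043, Clec10a 0.074 and Gpnmb 0.069. The dimmer arrays as a covariate gave C1qb 0.15, Gpnmb 0.077, Mpeg1 -0.015 and Retnla -0.0083. The epididymal covariate gave Adgre1 -0.68, C1qa -0.39, C1qc -0.88, Cd53 -1.01, Cd9 0.34, Clec7a -0.35, Csf1r -0.70, Ctss -1.0, Fcgr1 -0.082, Fcgr3 -1.23, Laptm5 -0.63, Lgals3 -0.98, Lyz1 -0.80, Marco -0.23, Mpeg1 -0.88, Mrc1 -0.76, Retnla -0.40, Spi1 -0.035, Trem2 -0.20 and Tyrobp -0.67. The other deposited table gave Mrc1 -0.06. Averaging a gene's probes gave Lyz1 -0.17 and Lyz2 0.12. No normalization between arrays gave C1qb 0.26, Clec10a 0.27, Gpnmb 0.23 and Lyz2 0.29. Leaving out 1 mouse, or mice 152 and 159 together, spanned -0.21 to 0.091 for C1qb, -0.054 to 0.21 for C1qc, -0.24 to 0.19 for Clec10a, -0.27 to 0.36 for Ctss, -0.11 to 0.16 for Fcgr1, -0.11 to 0.25 for Fcgr3, -0.12 to 0.44 for Lgals3, -0.033 to 0.18 for Lyz1, -0.20 to 0.18 for Lyz2 and -0.053 to 0.15 for Mrc1. The cause was not tested. No paired analysis was possible because the mouse numbers do not recur between the genotypes.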
